A study of Drosophila melanogaster with 9 samples.

Results

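The comparison of 29 °C with 25 °C asks which loci of a *Drosophila* cell line differ in DNA accessibility after mild warming. Its members were the 6 ATAC-Seq libraries of S2R+ cells kept for 24 h at 25 °C or at 29 °C, 3 at each temperature, out of 9 libraries in all, and every one of the 17175 consensus peaks was compared. S2R+ is an established line of embryonic origin with features of hemocytes, the blood cells of the fly, and it carries Wnt receptors of the Frizzled family. All cells were first grown for 36 h at 25 °C, so that the 25 °C cultures stayed at their temperature while the 29 °C cultures were warmed by 4 °C, and the third group, kept at 14 °C, is used here only for its values beside the other 2. Tagmentation, the step in which the Tn5 transposase cuts open chromatin, took place at 25 °C for every culture, and a difference that reverts within that step would not be seen. No genotype or drug differed between the groups.

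DNA that is free of nucleosomes, mostly at promoters and enhancers, is cut by Tn5 more often than packed DNA, and the read count in a peak measures this accessibility. Warmth is sensed at many levels in ectotherms. The best known is the heat shock response, in which the heat shock factor Hsf binds arrays of short inverted repeats upstream of *Hsp* genes and releases RNA polymerase that is paused there. GAGA factor (Trl) keeps the promoters of many of these genes open before any stress, so that an open *Hsp* promoter is not in itself a sign of transcription.

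The sequences before the start sites of 4 heat shock genes are shown because their promoters are compared below and because they differ in how many Hsf repeats they hold. Each is the 250 bases upstream of the start site in the Ensembl annotation, read 5′ to 3′ on the strand of the gene from the RefSeq dm6 genome, at chr3R:12467777-12468026 on the minus strand for *Hsp70Ba*, chr3R:24057311-24057560 on the minus strand for *Hsp68*, chr3L:9377428-9377677 on the minus strand for *Hsp26* and chr3L:9383813-9384062 on the plus strand for *Hsp27*. Capitals mark matches, on either strand, to the inverted pairs GAANNTTC and TTCNNGAA, which can overlap each other. A pair was found in 13.2% of the 19149 distinct windows of this kind of protein-coding genes.
Hsp70Ba: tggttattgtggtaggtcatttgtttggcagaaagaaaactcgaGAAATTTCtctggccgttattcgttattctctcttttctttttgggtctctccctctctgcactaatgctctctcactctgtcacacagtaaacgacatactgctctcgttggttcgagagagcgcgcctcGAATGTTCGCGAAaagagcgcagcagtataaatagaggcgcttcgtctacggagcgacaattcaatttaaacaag
Hsp68: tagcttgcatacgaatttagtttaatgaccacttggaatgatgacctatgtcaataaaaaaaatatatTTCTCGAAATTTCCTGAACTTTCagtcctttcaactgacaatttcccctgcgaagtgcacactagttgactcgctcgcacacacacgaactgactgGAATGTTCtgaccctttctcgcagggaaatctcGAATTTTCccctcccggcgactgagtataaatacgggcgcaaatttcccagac
Hsp26: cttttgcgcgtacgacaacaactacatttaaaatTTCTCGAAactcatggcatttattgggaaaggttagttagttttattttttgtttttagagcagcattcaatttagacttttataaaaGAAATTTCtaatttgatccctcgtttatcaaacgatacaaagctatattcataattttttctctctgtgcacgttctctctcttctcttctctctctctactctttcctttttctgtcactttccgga
Hsp27: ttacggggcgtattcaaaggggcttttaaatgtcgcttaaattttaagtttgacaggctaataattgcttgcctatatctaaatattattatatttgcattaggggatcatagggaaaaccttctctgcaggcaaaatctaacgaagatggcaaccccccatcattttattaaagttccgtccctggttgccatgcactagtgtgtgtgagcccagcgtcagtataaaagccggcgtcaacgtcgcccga
The *Hsp70Ba* window held 3 overlapping or separate matches, that of *Hsp68* 6, that of *Hsp26* 2 and that of *Hsp27* none. These counts cover the 250 bases only, and a pair further upstream would not be counted.

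In the same way, 121 bases around the midpoint of 4 of the peaks with the smallest p-values are shown, 3 that were higher at 29 °C and 1 that was lower, because the motifs they hold are counted over all peaks further on. They lie at chr2L:2451014-2451134 (*dpp*), chr3R:24029184-24029304 (*KrT95D*), chr2L:16623461-16623581 (*mtgo*) and chrX:1821121-1821241 (*prage*), and all are read on the plus strand of dm6. Capitals mark matches on either strand to the GAGA motif GAGAG, the AP-1 site TGANTCA, the GATA site AGATAA and the ETS site CCGGAA, which were found in 22.2%, 5.41%, 7.0% and 3.49% of the corresponding windows of all 17175 peaks.
dpp: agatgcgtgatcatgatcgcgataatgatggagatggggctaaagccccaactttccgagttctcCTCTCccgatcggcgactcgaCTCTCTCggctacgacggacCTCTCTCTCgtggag
KrT95D: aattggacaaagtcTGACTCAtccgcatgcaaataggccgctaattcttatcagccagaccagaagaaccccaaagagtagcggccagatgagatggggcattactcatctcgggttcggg
mtgo: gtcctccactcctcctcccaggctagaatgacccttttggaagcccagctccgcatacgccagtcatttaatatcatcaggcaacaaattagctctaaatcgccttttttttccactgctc
prage: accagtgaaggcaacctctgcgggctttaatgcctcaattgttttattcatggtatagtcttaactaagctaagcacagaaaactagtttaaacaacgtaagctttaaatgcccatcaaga
The *dpp* window held 6 overlapping or separate GAGA matches, that of *KrT95D* 1 AP-1 match, and those of *mtgo* and *prage* none of the 4 motifs.

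Differences between 25 °C and 29 °C were small against the spread of the replicates. In the edgeR quasi-likelihood test, 0 of 17175 peaks (0%) had an adjusted p under 0.05, and the smallest adjusted p was 0.822. At an unadjusted p under 0.05 stood 786 peaks (4.58%), of which 438 (2.55%) were higher and 348 (2.03%) lower at 29 °C. This balance turned under the authors' scaling, with 219 higher and 699 lower, and in the fit blocked by replicate number, where 432 were higher and 652 lower. DESeq2, run on the same 9 libraries, placed 20 peaks (0.116%) below an adjusted p of 0.05, 17 of them (0.099%) higher and 3 (0.0175%) lower at 29 °C. On the 6 libraries alone it placed 25 of the 4189 peaks that it kept (0.597%), and 7 peaks were in both sets. Many of the 20, such as those of *dpp*, *ham*, *Pde11* and *prage*, were not kept in that run and had no adjusted p there. Of those kept, only that of *CG3638* was above the threshold, with an adjusted p of 0.082 in DESeq2. As a description that needs no model, all 3 libraries of 29 °C lay above all 3 of 25 °C in 1358 peaks (7.91%) and below them in 735 (4.28%). Peaks of this kind are called separated hereafter.

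The replicates set a bound on how large an effect could have been missed. Log2 fold changes of 29 °C over 25 °C ran from -1.22 to 1.19, with quartiles of -0.27 and 0.15 and a median SE of 0.24. For 13150 peaks (76.6%) the 95% interval of the fold change lay inside a 2-fold change in either direction. A fitted change beyond 2-fold was seen in 10 peaks, 5 in each direction, and 3 of the higher and all 5 of the lower ones were separated. Among the lower ones, the *Zasp52* peak was separated only barely. Its lowest 25 °C library had 18.845 CPM and its highest 29 °C library 18.842 CPM.

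Depth ranged from 3290670 to 10805366 counts in peaks per library, both at 29 °C, and from 6046528 to 7456082 at 25 °C. Libraries differed in how far high peaks stood above low ones. The SD over peaks of log2 CPM (counts relative to the TMM-adjusted library size) was 0.89, 0.94 and 1.14 at 25 °C and 1.01, 1.31 and 1.04 at 29 °C, so that replicate 3 of 25 °C and replicate 2 of 29 °C stood apart from the rest of their groups. Group means were 0.99 ± 0.13 and 1.12 ± 0.17 (SD, n = 3), and the difference gave p = 0.4 in a two-sided exact permutation test, which cannot go below 0.1 with these groups. Promoter peaks were present at 10 of 12 hemocyte markers (not at *Hml* or *NimC1*) and at both Frizzled genes, *fz* and *fz2*. Of the markers of muscle and fat body, 0 of 5 each had one, against 1 of 6 for neurons (*elav*), 1 of 4 for the germline (*tej*) and 2 of 3 for the gut. The germline marker *nos* and the gut marker *Mex1* were listed but not matched to a gene, and these numbers leave them out.

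The 12 separated peaks with the smallest p-values on the higher side lay at genes of varied function, and that of *dpp* came first. *dpp*, which encodes a ligand of the BMP family, had a promoter peak (chr2L:2450824-2451324, with its midpoint 155 bp upstream of the start site) with 41.6, 40.1 and 37.98 CPM at 25 °C and 67.6, 67.2 and 75.5 CPM at 29 °C. Its 3 warm libraries lay far above the 3 others (log2 fold change 0.81 ± 0.14 SE, edgeR unadjusted p = 9.21e-05, adjusted p in DESeq2 0.000101). At 14 °C the same peak had 32.4, 34.2 and 34.6 CPM, below both other groups. The promoter of *Col4a1*, a collagen IV chain of the basement membrane and a hemocyte product, had 65.3, 70.5 and 68.8 CPM at 25 °C and 119.6, 195.9 and 122.7 CPM at 29 °C. The log2 fold change was 1.10 (SE 0.21, edgeR unadjusted p = 0.000306), and replicate 2 of 29 °C, the library with the widest spread, gave the highest value. *vn*, a neuregulin-like ligand of the EGF receptor that is described here as the leading promoter of its pathway's list, had 79.6, 86.1 and 98.7 CPM in its promoter peak at 25 °C and 132.5, 151.7 and 127.8 CPM at 29 °C.

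**Figure D1:**
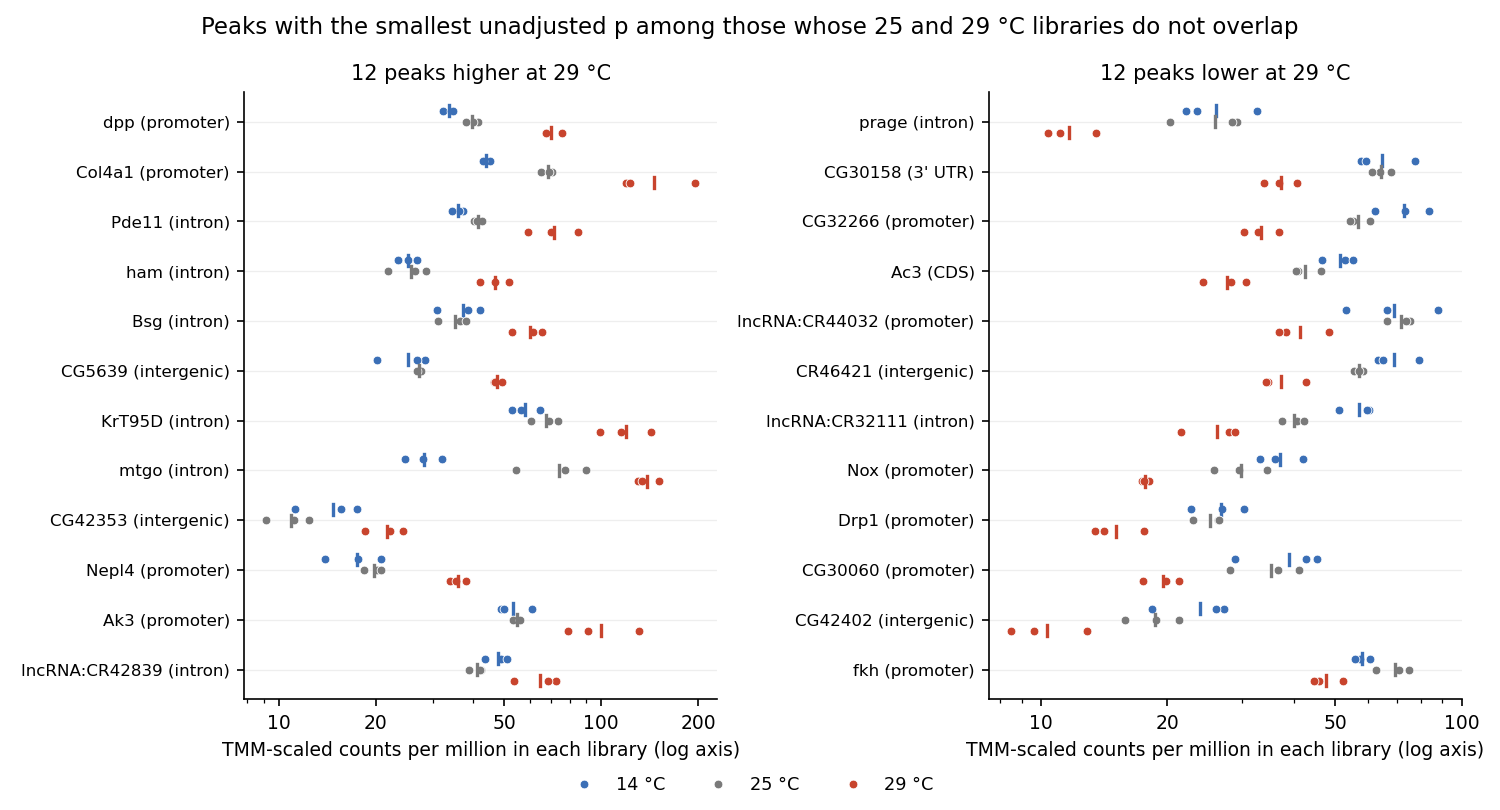
Accessibility of the 12 separated peaks with the smallest unadjusted p in each direction, as TMM-scaled CPM on a log axis. Each point is a library and each short bar the mean of 3; in the left panel every 29 °C point lies to the right of every 25 °C point, as in *dpp* (67.2 to 75.5 against 37.98 to 41.6 CPM), and in the right panel to the left, as in *prage* (10.4 to 13.5 against 20.3 to 29.2 CPM).

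Most of the others were intronic. An intron peak of *mtgo* (chr2L:16623271-16623771), a gene of the fibronectin type III family, had 54.3, 77.1 and 89.9 CPM at 25 °C and 130.3, 151.4 and 133.7 CPM at 29 °C, whereas at 14 °C it had 32.2, 28.0 and 24.6 CPM. The groups did not overlap at any of the 3 temperatures, and the log2 fold change of 29 °C over 25 °C was 0.91 (SE 0.21, edgeR unadjusted p = 0.00125). An intron peak of *Pde11*, a cyclic nucleotide phosphodiesterase, had 40.4, 41.3 and 42.8 CPM at 25 °C and 69.8, 85.0 and 59.5 CPM at 29 °C. *ham*, which encodes a zinc finger factor, had 21.9, 28.7 and 26.4 CPM in an intron peak at 25 °C and 42.0, 46.8 and 51.6 CPM at 29 °C. At 14 °C the *Pde11* peak, with 34.4 to 37.4 CPM, lay below its 25 °C libraries, and the *ham* peak, with 23.5 to 26.8 CPM, lay among them. The remaining 7 of the 12 peaks are named by *Bsg*, *CG5639*, *KrT95D*, *CG42353*, *Nepl4* (a neprilysin-like peptidase), *Ak3* (an adenylate kinase) and *lncRNA:CR42839*, with log2 fold changes from 0.66 to 0.98.

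The 12 separated peaks with the smallest p-values on the lower side likewise lay at genes of varied function. An intron peak of *prage* (chrX:1820931-1821431) had 20.3, 29.2 and 28.4 CPM at 25 °C and 13.5, 11.1 and 10.4 CPM at 29 °C (log2 fold change -1.14 ± 0.24 SE, edgeR unadjusted p = 0.000553). Here the 14 °C libraries, at 23.5, 32.7 and 22.1 CPM, overlapped the 25 °C libraries. A peak at the promoter of *C15*, a homeobox gene, which also covers the start of *lncRNA:CR44032*, had 75.3, 66.4 and 73.8 CPM at 25 °C and 38.3, 48.4 and 36.8 CPM at 29 °C. *Drp1*, the dynamin of mitochondrial fission, had 26.3, 22.998 and 26.6 CPM against 17.6, 13.5 and 14.2 CPM in a promoter peak with its midpoint 708 bp upstream of the start site. *fkh*, a forkhead factor, had 74.7, 71.1 and 62.7 CPM at 25 °C and 52.3, 45.9 and 44.7 CPM at 29 °C. The 3 peaks that DESeq2 placed below its threshold on the lower side were those of *prage*, *CG30158* and *CG32266*. The other 6 of the 12 are named by *Ac3* (an adenylyl cyclase), *CR46421*, *lncRNA:CR32111*, *Nox* (an NADPH oxidase), *CG30060* (shared with the flippase gene *ATP8A*) and *CG42402*, with log2 fold changes from -0.88 to -0.61.

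Over the 438 peaks with an unadjusted p under 0.05 that were higher at 29 °C, the median log2 fold change was 0.52, and that of 14 °C over 25 °C in the same peaks was -0.10. For the 348 lower ones the medians were -0.63 and 0.24. Both comparisons share the 25 °C libraries, so these values are given side by side only.

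The heat shock genes had small differences, all of the same sign at their promoters. Of the 19 genes in the list, 12 had a promoter peak, each with a single one, and 7 had none (*Hsp23*, *Hsp67Bc*, *CG4456* and 4 of the 6 *Hsp70* copies, which are near-identical and from which the authors removed reads that map to several places). The 12 log2 fold changes ran from 0.13 to 0.65 with a median of 0.28, against a median of 0.05 over all 7945 promoter peaks. At an unadjusted p under 0.05 stood 2 of the 12, both higher at 29 °C, where 2.23% of all promoter peaks were higher at that level and 1.26% lower. Separated were 6 of the 12 (50%), all upward, against 8.76% of promoter peaks upward and 3.83% downward. With no library left out but counts offset against peak height, 4 (33.3%) were separated upward and 0 downward, against 9.55% and 4.49% of promoter peaks. Without the 2 libraries of widest spread, which leaves 2 against 2, these numbers were 8 (66.7%) and 0, against 31.9% and 18.8% of promoter peaks. The median of the 12 stayed between 0.20 and 0.47 over 18 alternatives, and none of the 12 passed an adjusted p of 0.05 in edgeR or in DESeq2.

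**Figure D2:**
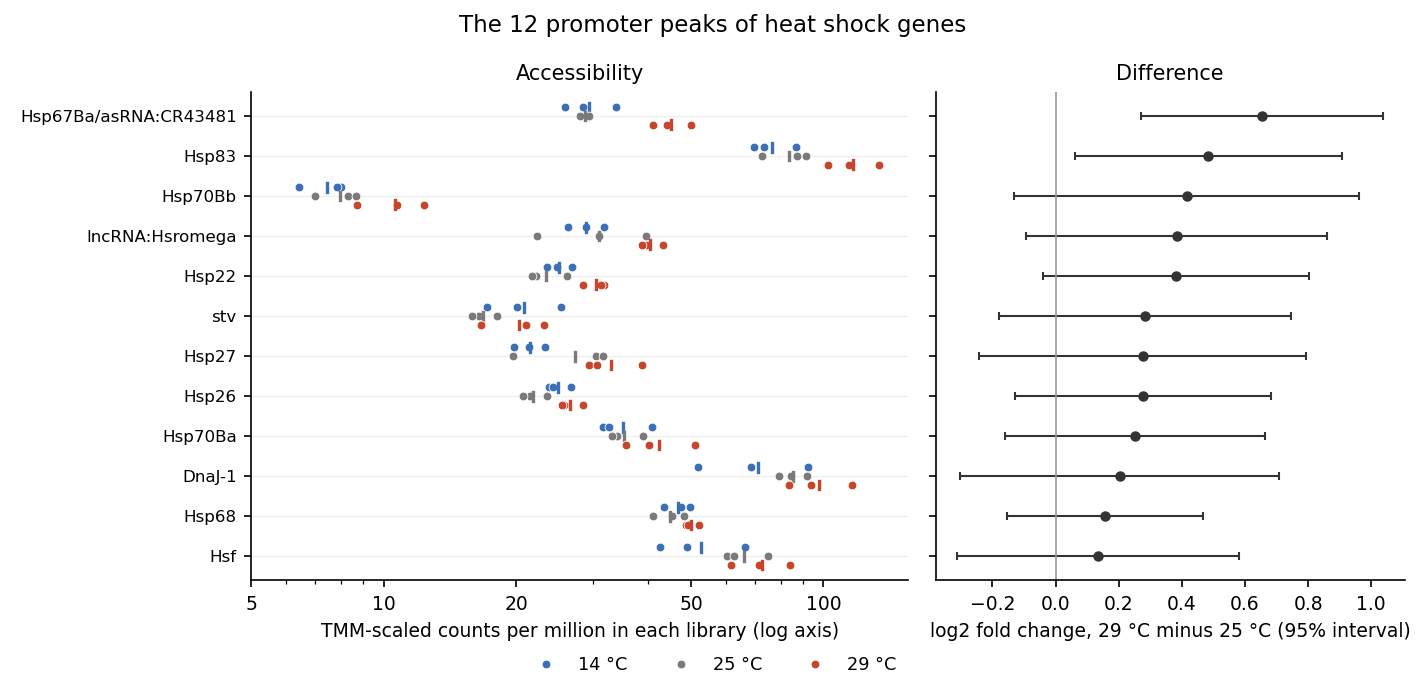
Left, TMM-scaled CPM of the 12 heat shock promoter peaks in each library on a log axis, with short bars for means of 3; right, log2 fold change of 29 °C over 25 °C with its 95% interval from edgeR. All 12 estimates lie above 0, from 0.13 for *Hsf* to 0.65 for *Hsp67Ba*, while the intervals of all but *Hsp67Ba* and *Hsp83* include 0. The *Hsp67Ba* peak covers the start of *asRNA:CR43481* and not that of *Hsp67Ba*.

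*Hsp83*, which encodes the chaperone of the Hsp90 family, had 72.4, 87.1 and 91.4 CPM in its promoter peak (chr3L:3192845-3193345, shared with the divergent gene *CG14965*) at 25 °C and 102.5, 133.8 and 114.2 CPM at 29 °C. Its 3 warm libraries were above all others (log2 fold change 0.48 ± 0.19 SE, edgeR unadjusted p = 0.0285). A peak in its coding exon had 52.1, 55.0 and 56.0 CPM against 105.9, 72.9 and 61.0 CPM. Over the 3′ end of *Hsp83* lay the promoter peak of the neighbour *CG14966* on the other strand, with 70.8, 84.7 and 78.2 CPM at 25 °C and 111.3, 130.0 and 120.5 CPM at 29 °C. This peak had an adjusted p of 0.0261 in DESeq2 on the 6 libraries and of 0.13 on all 9.

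Small heat shock proteins, which bind unfolding proteins without ATP, are encoded in a cluster at 67B. The peak counted for *Hsp67Ba* (chr3L:9379889-9380389) covers the start of *asRNA:CR43481*. It lies upstream of the *Hsp67Ba* start site, within 500 bp, without covering it. It had 28.7, 27.9 and 29.3 CPM at 25 °C and 41.0, 50.1 and 44.1 CPM at 29 °C. The log2 fold change of 0.65 (SE 0.17, edgeR unadjusted p = 0.00313) was the highest of the 12, and the reads of the sense and antisense gene cannot be told apart. *Hsp22* had 22.2, 21.7 and 26.1 CPM at 25 °C and 31.8, 28.4 and 31.2 CPM at 29 °C. *Hsp26* had 21.5, 20.7 and 23.6 CPM against 28.3, 25.8 and 25.5 CPM, again with no overlap. In *Hsp27* the groups did overlap, with 19.7, 30.3 and 31.6 CPM at 25 °C and 29.3, 38.7 and 30.5 CPM at 29 °C.

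Of the Hsp70 family, *Hsp68* had 48.3, 45.2 and 41.0 CPM at 25 °C and 48.6, 49.3 and 52.2 CPM at 29 °C. This was a separated peak (log2 fold change 0.16 ± 0.14 SE), and its upstream window held 6 Hsf pairs. *Hsp70Ba* had 33.9, 38.8 and 33.0 CPM against 40.0, 35.6 and 51.0 CPM, with overlap, and *Hsp70Bb* 8.29, 8.64 and 6.996 CPM against 8.72, 12.4 and 10.7 CPM, without overlap. Counts at these copies are uncertain because the genes differ at few positions. The Hsp40 cochaperone *DnaJ-1* had 79.3, 84.2 and 91.7 CPM against 93.7, 115.9 and 83.4 CPM at its promoter and, in its 3′ UTR, 43.7, 34.1 and 35.4 CPM against 66.5, 56.3 and 56.0 CPM. The latter log2 fold change was 0.66 (SE 0.16, edgeR unadjusted p = 0.00189) and the promoter value 0.20 (SE 0.23).

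The BAG-family cochaperone *stv* (log2 fold change 0.28), the noncoding RNA gene *lncRNA:Hsromega* (0.38) and *Hsf* itself (0.13) each had overlapping groups at the promoter. *lncRNA:Hsromega* had 22.4, 30.8 and 39.5 CPM at 25 °C and 39.4, 38.7 and 43.1 CPM at 29 °C, and only the highest 25 °C library reached the warm ones. Over all 24 peaks in or just upstream of the list's genes, 9 were separated upward (37.5%) and 0 downward, and the median log2 fold change was 0.25. Among all 17175 peaks 7.91% were separated upward and 4.28% downward, and their median was -0.02. Chaperones that cells use without stress showed no separated promoter peak among 22, in either direction, with a median of 0.14 (0.07 to 0.23 over the alternatives). Among all promoter peaks 8.76% were separated upward and 3.83% downward, with a median of 0.05. At such shares few peaks among 22 would be separated.

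Motifs for Hsf were more frequent in the heat shock promoter peaks than in promoter peaks at large, and about as frequent in the peaks higher at 29 °C as in all peaks. Either inverted pair was present in 8 of the 12 (66.7%), against 24.0% of all promoter peaks, and a run of 3 alternating units, in which a pair of either kind is followed by a further GAA or TTC after NN, in 3 of 12 (25%) against 0.717%. A TATA box (TATAAA) was present in 10 of 12 (83.3%) against 48.1%, and GAGAG in 8 of 12 (66.7%) against 54.8%. Among the 438 peaks of any class that were higher at an unadjusted p under 0.05, GAANNTTC was present in 12.6% and the run of 3 units in 0.68%, against 12.3% and 0.55% of all 17175 peaks.

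At some genes with many peaks a large share of these lay higher at 29 °C. Counting peaks by the gene that names them, in the 521 genes with at least 6 peaks, 16 genes had 6 or more peaks separated upward and 12 of these had none downward, while only *Zasp52* and *apt* had 4 or more downward. These loci were singled out after their values had been seen. *Eip74EF*, an ecdysone-induced ETS factor, had the most, with 12 of 20 peaks separated upward and 1 downward. The shares of all peaks were 7.91% upward and 4.28% downward. In 10 bins by mean CPM, the lowest bin had 4.95% upward and the highest bin 13.7% upward and 0.64% downward. Beyond the counts with offsets against peak height given below, the part of height at these loci was not tested. Peaks of 1 gene share their locus and libraries and are not independent.

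At *Eip74EF* one of the tallest peaks (chr3L:17590392-17590892) had 217.6, 282.7 and 284.0 CPM at 25 °C and 330.0, 371.8 and 417.9 CPM at 29 °C (log2 fold change 0.51 ± 0.31 SE). A peak with less spread between replicates (chr3L:17603815-17604315) had 39.4, 39.5 and 38.3 CPM against 49.7, 55.3 and 57.0 CPM (log2 fold change 0.47, SE 0.14, edgeR unadjusted p = 0.0065). Over its 20 peaks the median log2 fold change was 0.36, with 17 above 0, and 1 intron peak (chr3L:17608731-17609231) was separated downward with a log2 fold change of -0.32. *Eip75B*, which encodes a heme-binding nuclear receptor of the same hormone cascade, had 10 of 39 peaks separated upward and 0 downward, with 34 log2 fold changes above 0. With offsets against peak height the upward numbers were 7 for *Eip74EF* and 12 for *Eip75B*, and the downward numbers 0 for both. Among all peaks 7.91% were separated upward and 4.28% downward, and 8.86% and 5.49% with these offsets.

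*kay* encodes Fos, the partner of Jun in the AP-1 factor that acts below the JNK kinase. All of its 14 peaks had a log2 fold change above 0, from 0.07 to 0.67, and 10 were separated upward, 0 downward (7 and 0 with offsets against peak height). The shares of all peaks were 7.91% upward and 4.28% downward, and 8.86% and 5.49% with these offsets. An intron peak that DESeq2 placed below its threshold (chr3R:29777825-29778325) had 129.1, 128.2 and 133.8 CPM at 25 °C and 179.4, 214.5 and 186.6 CPM at 29 °C, and 126.7, 128.0 and 130.8 CPM at 14 °C. The 14 °C and 25 °C libraries thus overlapped while all warm ones lay higher (log2 fold change 0.57, SE 0.19). At *CG14441* all 6 peaks were separated upward, with log2 fold changes from 0.46 to 0.82, and 5 of them had an unadjusted p under 0.05. Its internal promoter peak (chrX:6708690-6709190) had 24.9, 24.5 and 23.6 CPM against 37.8, 40.7 and 51.0 CPM.

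**Figure D3:**
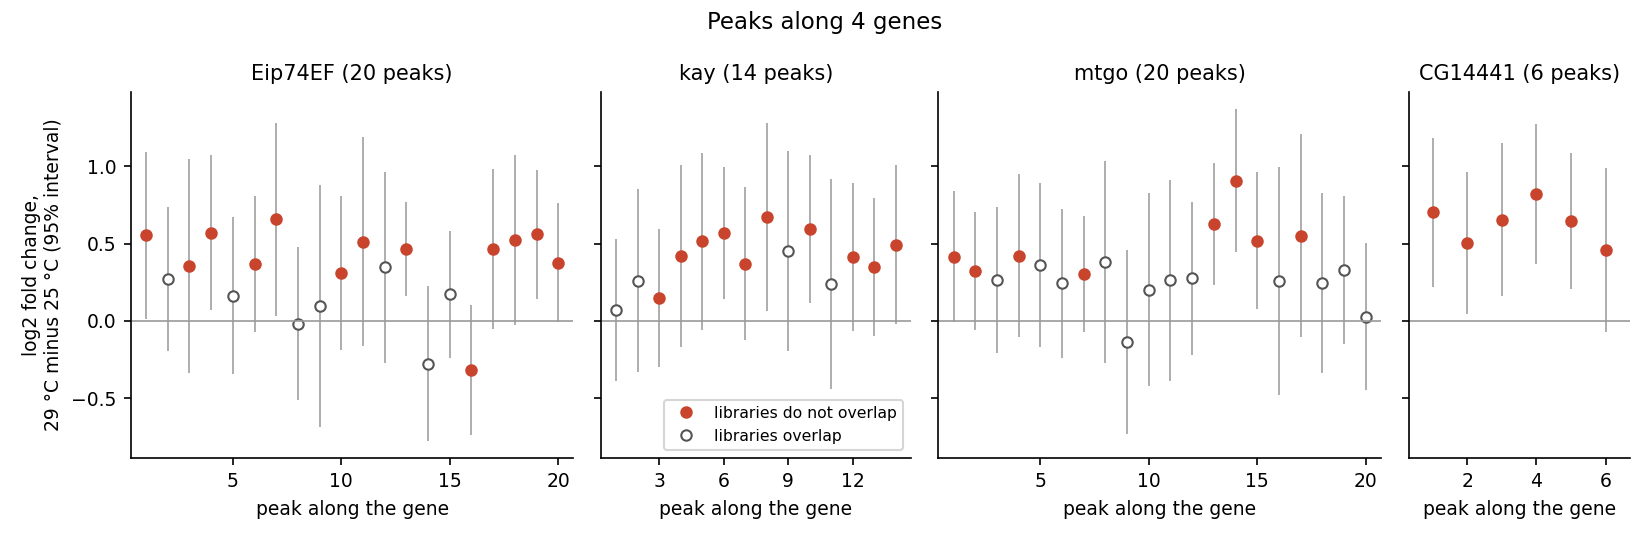
Log2 fold change of 29 °C over 25 °C for each peak named by *Eip74EF*, *kay*, *mtgo* and *CG14441*, in chromosome order, with 95% intervals from edgeR; filled points are peaks whose 3 warm libraries do not overlap the 3 at 25 °C. All 14 estimates of *kay* and all 6 of *CG14441* lie above 0, against 17 of 20 for *Eip74EF* and 19 of 20 for *mtgo*.

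More peaks upward than downward, at smaller numbers, were also counted for *mtgo* (8 of 20 separated upward, 0 downward), *Pdp1* (7 of 20 and 0), an activator in the circadian clock, *tai* (7 of 26 and 0), a coactivator of the ecdysone receptor, *lncRNA:CR46006* (7 of 10 and 0) and *eIF5B* (7 of 12 and 0, but 4 and 0 with offsets against peak height), the GTPase that joins ribosomal subunits. In *eIF5B* an intron peak (chr3L:3429309-3429809) had 86.9, 81.7 and 83.9 CPM at 25 °C and 123.8, 126.8 and 125.9 CPM at 29 °C, so that the warm libraries lay close together and above all others. *EcR*, the receptor for ecdysone, had 6 of 22 peaks upward but also 3 downward. *Mnt*, a partner of Max, had 6 of 19 upward and 0 downward, but 0 upward and 4 downward with offsets against peak height. These counts stand against 7.91% upward and 4.28% downward of all peaks, and 8.86% and 5.49% with the offsets.

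These loci carried much of what the gene lists showed. Taking peaks in the genes or the 2000 bp upstream, 57 of 250 peaks of ecdysone response genes (22.8%) were separated upward and 9 (3.6%) downward. Of all peaks, 7.91% were separated upward and 4.28% downward. At an unadjusted p under 0.05 in edgeR stood 22 of the 250 upward and 3 downward, against 2.55% and 2.03% of all peaks. Peaks of 16 named genes made up the 57, and without the 20 named by *Eip74EF* the share was 19.6%. Counted by the gene that names them, *Eip75B* (10 of 39), *EcR* (6 of 22) and *br* (6 of 17) also had several upward peaks. The share without these was not computed. In the JNK and AP-1 list 20 of 88 peaks were separated upward and 1 downward, but 10 of the 20 were named by *kay*, and 13.5% of the other 74 were upward. In the circadian list 14 of 56 peaks were upward and 1 downward, 7 of the 14 were named by *Pdp1*, and 19.4% of the other 36 were upward. *Eip74EF* likewise supplied 12 of the 19 upward peaks of the ETS factors, 14.9% of the other 47 being upward. Median heights were 45.1 CPM for ecdysone genes, 63.3 for the JNK and AP-1 list, 59.8 for circadian genes and 92.9 for ETS factors. Over all peaks the median was 39.0 CPM, and the part of height was not tested. For translation initiation factors the 13 upward peaks of 87 dropped to 8.0% of 75 without *eIF5B*, close to the 7.91% of all peaks, and to 8 of 87 with offsets against peak height. With these offsets 8.86% of all peaks were separated upward.

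**Figure D4:**
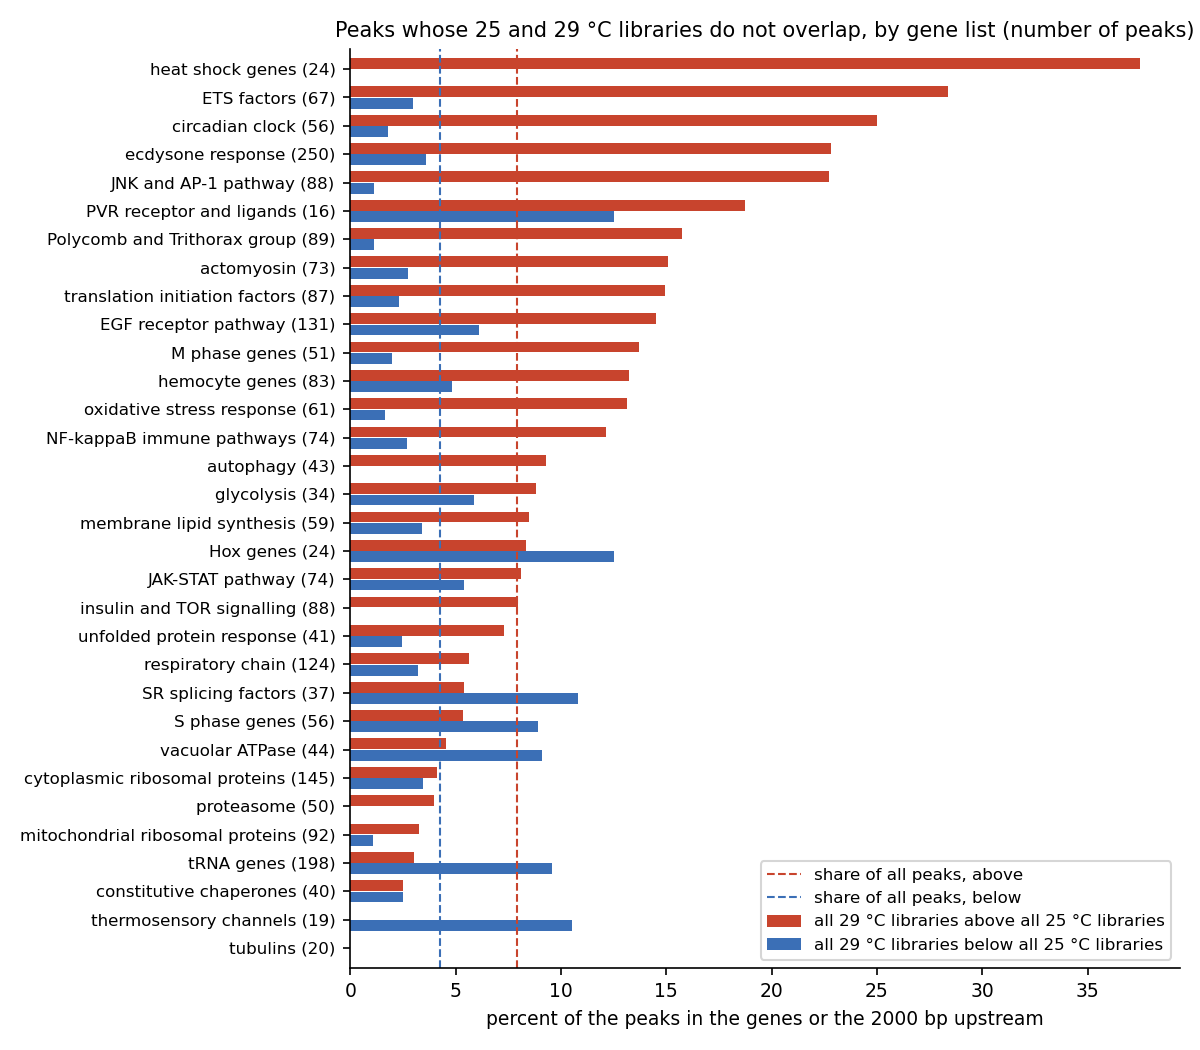
Share of peaks, in percent, in the genes of each list or 2000 bp upstream whose 29 °C libraries all lay above (red) or below (blue) all 25 °C libraries, with the number of peaks in parentheses. Dashed lines mark the shares of all 17175 peaks, 7.91% and 4.28%; heat shock genes have the longest red bar at 37.5%, and tubulins have neither.

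Shares of other signalling and structural lists are given against the 7.91% upward and 4.28% downward of all peaks. Upward shares also went with peak height: of 10 bins by mean CPM, decile 8 had 11.4% and decile 10 had 13.7%. Median heights were 65.6 CPM for the EGF receptor list, 66.7 for Polycomb and Trithorax genes, 63.9 for actomyosin and 86.1 for hemocyte genes. Over all peaks the median was 39.0 CPM, and the part of height in these shares was not tested. The EGF receptor pathway had 19 of 131 peaks upward (14.5%) and 8 downward (6.11%). Of the upward ones 7 were at *Raf*, the kinase between Ras and MEK, and 10.5% of the other 114 peaks were upward. Polycomb and Trithorax group genes had 14 of 89 upward (15.7%) and 1 downward, spread over 11 named genes. Actomyosin genes had 11 of 73 upward (15.1%) and 2 downward, among them the promoter of the cytoplasmic actin gene *Act5C* (63.1, 71.3 and 90.1 CPM at 25 °C, 93.4, 117.3 and 104.2 CPM at 29 °C). Hemocyte genes had 11 of 83 upward (13.3%) and 4 downward, and the NF-kappaB immune pathways 9 of 74 (12.2%) and 2. The JAK-STAT pathway, with 6 of 74 upward (8.11%) and 4 downward, and insulin and TOR signalling, with 7 of 88 (7.95%) and 0, had upward shares like that of all peaks. Genes for thermosensory channels, such as the TRP family that senses heat in fly neurons, had a promoter peak in 4 of 18 genes, and of their 19 peaks 0 were upward and 2 downward.

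Counts of separated promoter peaks in housekeeping lists are read against the 8.76% upward and 3.83% downward of all promoter peaks. Of 98 promoter peaks of cytoplasmic ribosomal proteins 5 (5.10%) were upward and 0 downward, and of 69 for mitochondrial ribosomal proteins 3 (4.35%) and 1. Of 38 for the proteasome 1 (2.63%) was upward and 0 downward, and of 34 for S phase genes 1 (2.94%) and 2. Tubulin genes had 0 of 11 in either direction, and the unfolded protein response had 1 of 20 upward and 0 downward. Transfer RNA genes, which RNA polymerase III transcribes, had the opposite balance: 19 of 165 promoter peaks (11.5%) were separated downward and 4 (2.42%) upward, with 8 and 2 at an unadjusted p under 0.05. Among all promoter peaks 3.83% were separated downward and 8.76% upward, and at that unadjusted p stood 1.26% and 2.23%. A peak over *tRNA:Gly-GCC-2-1* had 20.1, 27.4 and 23.4 CPM at 25 °C and 14.2, 13.5 and 15.7 CPM at 29 °C. The list's median log2 fold change was nonetheless -0.03, and its sign changed among the alternatives (-0.13 to 0.05). Copies of 1 tRNA share their sequence, and counts at such genes are uncertain.

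Direction went with peak height. When the peaks were cut into 10 equal bins by mean CPM, 4.95% of the lowest bin were separated upward and 6.46% downward, and of the highest bin 13.7% and 0.64%. The 1358 upward peaks had a median height of 55.6 CPM and the 735 downward ones 32.5 CPM, against 39.0 CPM over all peaks. In this comparison the library with the widest spread of peak heights was a 29 °C one, and how far that spread contributes cannot be told apart from temperature in these 6 libraries. Offsets against peak height remove the mean trend, and under them 1522 peaks were separated upward and 943 downward.

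**Figure D5:**
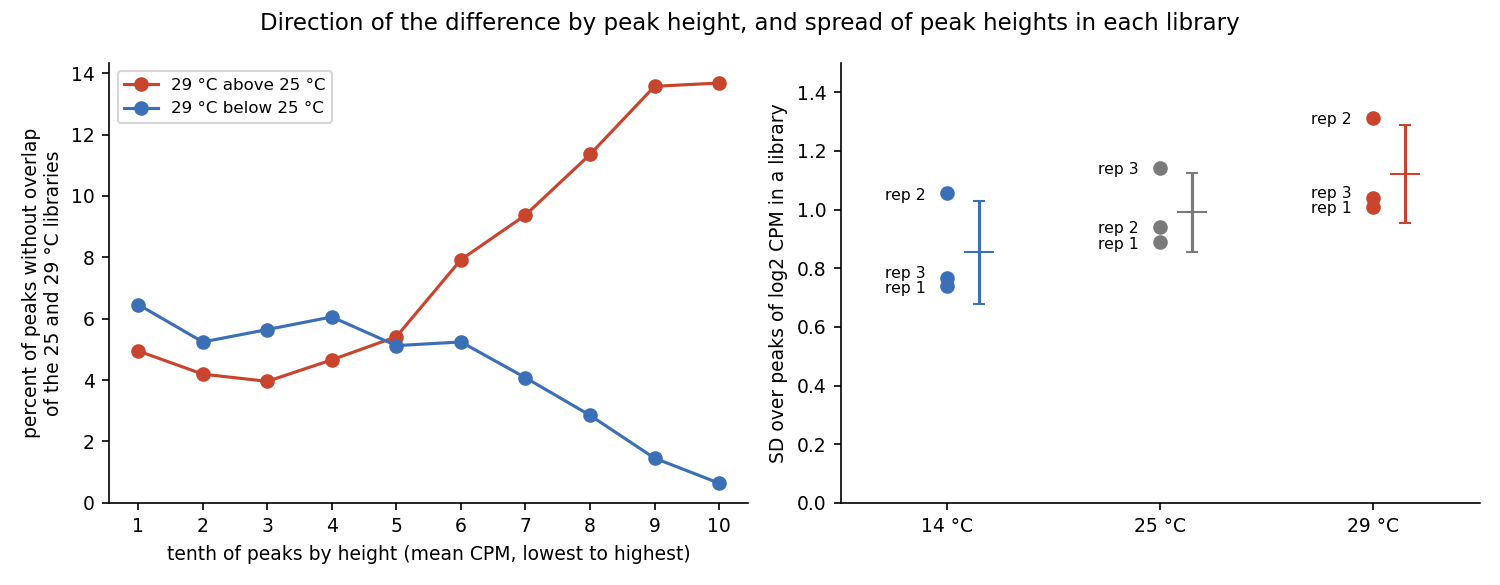
Left, percent of peaks whose 29 °C libraries all lay above or below the 25 °C libraries, in 10 bins of mean CPM; right, SD over peaks of log2 CPM in each library, with the mean and SD of 3 beside the points. The upward share goes from 4.95% in the lowest bin to 13.7% in the highest, and the widest spread of each group is that of replicate 2 at 14 °C, replicate 3 at 25 °C and replicate 2 at 29 °C.

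Values also differed by position in genes. Promoter peaks had a median log2 fold change of 0.05 and introns of 0.00, with 8.76% and 9.53% separated upward. Intergenic peaks had a median of -0.20 and peaks in coding exons of -0.38, the latter with 1.62% upward and 4.31% downward. Coding exon peaks kept a negative median of -0.27 with offsets against peak height, with 1.62% upward and 7.25% downward, while the intergenic median was -0.11. Medians also went with GC content, from 0.06 in the third of peaks with the lowest GC to -0.26 in that with the highest, and its part in these differences was not tested. Among chromosome arms, X had a median of 0.08 with 10.6% upward and 2.87% downward (0.11, 10.4% and 3.37% with those offsets), and 2R a median of -0.09 with 5.33% and 5.10%.

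Motif content also differed by direction. GAGAG, the core of the GAGA factor site, was present in 69.6% of the 438 upward peaks with an unadjusted p under 0.05, in 54.9% of the 348 downward ones and in 54.9% of all peaks (68.7% and 54.2% with offsets against peak height). The ETS site CCGGAA was present in 7.31% upward, 20.4% downward and 14.5% of all peaks (7.37% and 20.4% with offsets). Both core promoter motifs of housekeeping genes were scarce in either direction, with 2.05% and 0.29% for the DRE (TATCGATA) against 5.02% of all peaks, and 2.28% and 4.6% for motif 1 (GGTCACA) against 8.34%. With offsets against peak height these shares were 2.97% and 1.08% for the DRE and 4.64% and 5.23% for motif 1. TATAAA was present in 47.3% upward and 33.6% downward, against 42.3%. The AP-1 site differed little, at 16.9% and 12.1% against 15.6%, as did AGATAA at 31.3% and 27.9% against 27.0%. Motifs were searched on both strands of the whole peak, and a match is not evidence that a factor was bound.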

How the data were processed

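ATAC-Seq reads had been trimmed with Trimmomatic 0.38, mapped to dm6 with Bowtie2, cleared of duplicates with Picard and shifted for the Tn5 footprint by the authors, who then ran MACS2 on every library by itself and counted reads in consensus peaks with DiffBind, most of them 500 bp wide. The deposited counts are raw whole numbers per peak and library. The deposited normalized signal, the authors' counts divided by a size factor, only served to recover their scaling, and the 2 tables differ by more than 0.5 counts in 4 peaks, among them that of *Rsf1*, for which the raw counts were used. Their step that removed peaks of low reproducibility was not repeated.

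Counts of all 9 libraries were fitted with edgeR 4.0.16 in R 4.3.3 (TMM scaling, robust quasi-likelihood, temperature as factor, 6 residual degrees of freedom, Benjamini-Hochberg adjustment over all 17175 peaks, no filter), and the SE was taken as the size of the log2 fold change over the square root of F. The fit was tested on simulated data. DESeq2 1.42.0 was an alternative, beside other scalings, offsets against peak height or GC content from a loess curve (span 0.3), a filter that kept 12884 peaks, a replicate block and each library left out. Leaving out both libraries of widest spread, the counts of lists under the alternatives and the counts of peaks per gene were chosen after the data had been seen.

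Peaks were annotated with Ensembl release 115, with promoter peaks reaching to within 500 bp of a start site. They are named by the nearest start site within that distance, otherwise by the gene that holds the midpoint, otherwise by the nearest start site. Coordinates are as deposited, and whether starts count from 0 or 1 is not given in the sources used here. Named were, in each direction, the 12 separated peaks with the smallest unadjusted p, every peak of the heat shock genes and, for each other list, the promoter peak with the smallest unadjusted p; other named loci were chosen after their values were seen. Members and lists were chosen with earlier results of these data known, and 6 list entries matched no gene. At the median mean count of 260.7 the counting error is 6.19%, against a biological coefficient of variation of 22.7%. Nothing in the labels says that libraries with one replicate number were handled together, and p-values measure the spread between these cultures only.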

Additional observations from a re-analysis of the deposited data

How the results depend on the processing

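No peak passed an adjusted p of 0.05 in any edgeR alternative, while DESeq2 called 20 peaks on 9 libraries and 25 on 6, and 786 peaks had an unadjusted p under 0.05 in the edgeR fit. That count was 1395 with offsets against peak height (841 higher and 554 lower), 1314 in DESeq2 on 6 libraries (748 higher and 566 lower), and 672 were higher in edgeR on 6 libraries. Under the authors' scaling, which shifts the median over all peaks to -0.09 (log2), the split turned to 219 higher and 699 lower. Leaving out 1 library at a time gave 338 to 1905 peaks, 208 to 602 higher and 126 to 1303 lower, and the highest count came without replicate 3 of 25 °C, the lowest counts without replicates 1 and 2 of 25 °C or replicate 2 of 29 °C. Separated peaks numbered 1588 to 3988 upward and 1076 to 4093 downward with 1 library left out, and 4583 and 4888 without both libraries of widest spread, where 2 libraries are set against 2. With 1 library left out, both highest counts (3988 upward, 4093 downward) came without replicate 3 of 25 °C. The next were 2138 upward, without replicate 1 of 29 °C, and 1501 downward, without replicate 2 of 29 °C. Separation is easier to reach with fewer libraries, and the cause of these shifts was not tested.

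Libraries with the same replicate number deviated together for number 1 only, with r across peaks of 0.53, -0.49 and -0.60 for numbers 1 to 3. Not every library correlated best with its own number. Nothing in the labels says that same-numbered libraries were handled together, and the numbers were not used as pairs. With the replicate number as a block, 432 peaks were higher and 652 lower at an unadjusted p under 0.05, and with offsets against peak height added 1429, 772 higher and 657 lower. The block gave 0 peaks past the adjusted threshold.

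Of the named peaks, 3 with values near 0 changed sign. The exon peak of *lncRNA:Hsromega* at chr3R:21297182 had -0.11 with offsets against peak height and with the block added, and -0.0958 to 0.22 with 1 library left out. Its peak at chr3R:21311254 had 0.0534 with these offsets, 0.10 with the block added, -0.28 to 0.25 with 1 library left out and 0.22 without both libraries of widest spread. *SMC1* (chr3R:24058122) had -0.0462 under total count scaling, -0.0638 under the authors' scaling, -0.0138 with offsets against GC content, -0.00888 in DESeq2 on 6 libraries, -0.0266 with the filter on low counts and -0.11 to 0.11 with 1 library left out.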

Other observations

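The 10 peaks with a fitted change beyond 2-fold, chosen here after their values were seen, include a stretch of the X chromosome at *w*, the transporter gene of eye pigment. A coding exon peak of *w* (chrX:2792052-2792552) had 34.0, 40.8 and 9.99 CPM at 25 °C and 49.5, 105.6 and 35.9 CPM at 29 °C, and its promoter peak 23.8, 23.2 and 7.42 CPM against 31.9, 64.5 and 24.2 CPM. The neighbour *CG32795* had 31.8, 45.8 and 26.1 CPM against 59.8, 97.4 and 55.7 CPM. In all 3 peaks the lowest value was that of replicate 3 at 25 °C and the highest that of replicate 2 at 29 °C. On the lower side, *Zasp52*, which encodes a protein of muscle Z discs, had 38.9, 39.0 and 18.8 CPM in a coding exon at 25 °C and 18.8, 11.5 and 17.6 CPM at 29 °C, and *Myo81F*, a myosin gene in pericentromeric DNA, 18.8, 13.9 and 8.14 CPM against 6.85, 4.599 and 6.29 CPM. Again the lowest values of each group came from the same 2 libraries, and the part of these libraries in the differences was not tested.

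Other gene groups gave small values. The promoter peak of the Hox gene *pb* had 46.2, 49.7 and 56.0 CPM at 25 °C and 35.7, 41.6 and 41.9 CPM at 29 °C, that of the glycolytic gene *PyK* 56.2, 61.7 and 51.8 CPM against 38.6, 48.7 and 49.4 CPM, and that of *AcCoAS*, which makes acetyl-CoA, 34.2, 29.7 and 32.3 CPM against 24.0, 25.3 and 17.3 CPM. Each was separated downward. The antimicrobial peptide gene *CecA1* had 15.1, 14.5 and 15.0 CPM against 17.4, 21.1 and 22.97 CPM, and 24.5, 19.2 and 22.4 CPM at 14 °C, so that both shifts lay above 25 °C. *eIF4E1*, the cap-binding factor, had 42.8, 53.7 and 62.4 CPM against 77.7, 79.1 and 79.3 CPM. None of these peaks passed the adjusted threshold in edgeR or DESeq2 on 9 libraries.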
